A study of Sus scrofa with 27 samples.

Results

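The ovulatory genes of the granulosa cell are those known to be switched on by the preovulatory surge of luteinizing hormone (LH), and 10 of them were followed here: AREG, EREG, BTC, PGR, RUNX1, RUNX2, PTGS2, HAS2, TNFAIP6 and PTX3. They were chosen by name for this known role, and all 10 were matched to an Ensembl identifier among the 35670 in the count tables. Mural granulosa cells (GCs), the granulosa layer along the follicle wall, had been cut out by laser capture microdissection from 1 large healthy follicle in each of 27 sows, and each sow gave 1 RNA-seq library. The sows were wild-type first-litter females of a Large White and Norwegian Landrace cross. In the last 2 weeks of lactation the 13 full-fed (FF) sows were given 6.5 kg of feed a day, and the 14 feed-restricted (RES) sows were given 3.25 kg. Per the study's methods, the RES sows were picked for the highest and the FF sows for the lowest body weight loss among larger feeding groups. The study also reports a smaller mean diameter of the largest healthy follicle in RES. Feeding, this choice of sows and follicle size cannot be told apart in these samples. After weaning both groups were fed alike, on what the labels call a full diet and the study's methods give as a fixed daily ration smaller than that of the RES sows before weaning, and tissue was taken on day 2 post-weaning. The comparison asks whether any follicle showed a surge response at that time, and whether the genes differed between RES and FF.

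The LH surge acts on GCs of the large follicle through the LH receptor and cyclic AMP. GCs then release the EGF-like ligands amphiregulin, epiregulin and betacellulin, which act on the EGF receptor of neighbouring mural and cumulus cells, while the progesterone receptor and the RUNX factors direct the transcription of genes for rupture and luteinization. Prostaglandins made by PTGS2 and a hyaluronan matrix, made by HAS2 and held together by TNFAIP6 and PTX3, complete the response. Before the surge most of these genes are known to be low in GCs.

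The 3 EGF-like ligands lie in a single stretch of pig chromosome 8, and they were the genes of the group that passed the test between RES and FF. BTC passed at a mean count of at least 5 (1 of 7 genes tested, beside 14.1% of all genes tested so), and AREG and EREG passed when that filter was dropped (3 of 10 with BTC, beside 9.96% of all genes). Their promoters are therefore shown, from the RefSeq genes of the genome build Sscrofa11.1, as 250 bases before and 50 bases after the annotated start in the direction of the gene. AREG lies on the plus strand (its window is chr8:70417685-70417984), EREG on the plus strand (chr8:70351066-70351365) and BTC on the minus strand (chr8:70697489-70697788). Capitals mark matches to the cyclic AMP response element TGACGTCA, to its shorter core TGACG and to the TATA box TATAAA, each searched on both strands, so that a core on the opposite strand reads CGTCA.
AREG: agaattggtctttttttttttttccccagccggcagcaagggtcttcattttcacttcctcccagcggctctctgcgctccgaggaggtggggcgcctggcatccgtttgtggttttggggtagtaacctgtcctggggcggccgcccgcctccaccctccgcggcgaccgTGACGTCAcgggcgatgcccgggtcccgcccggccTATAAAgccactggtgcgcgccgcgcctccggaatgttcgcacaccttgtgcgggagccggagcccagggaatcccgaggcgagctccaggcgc
EREG: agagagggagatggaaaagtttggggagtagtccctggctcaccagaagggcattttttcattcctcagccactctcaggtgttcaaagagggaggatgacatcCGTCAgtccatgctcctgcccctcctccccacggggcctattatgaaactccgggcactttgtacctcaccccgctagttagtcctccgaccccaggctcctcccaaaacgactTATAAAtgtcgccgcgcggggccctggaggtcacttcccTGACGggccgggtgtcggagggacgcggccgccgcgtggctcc
BTC: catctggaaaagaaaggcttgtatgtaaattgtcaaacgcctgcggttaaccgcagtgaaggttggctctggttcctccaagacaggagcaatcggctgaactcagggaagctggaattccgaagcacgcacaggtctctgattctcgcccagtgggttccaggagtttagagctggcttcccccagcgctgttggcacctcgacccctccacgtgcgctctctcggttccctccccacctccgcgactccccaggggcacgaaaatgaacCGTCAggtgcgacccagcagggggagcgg
The AREG promoter held the whole element 79 bases before the start and a TATA box 44 bases before it. EREG held cores 146 bases before and 8 bases after its start and a TATA box 32 bases before it, and BTC held a core 22 bases after its start. Of 19528 promoters of the same length, 2.26% held the whole element, 24.2% a core and 10.9% the TATA box, and every whole element also counts as a core. Among the 9 ovulatory genes with a RefSeq promoter, 1 held the whole element, 5 a core (AREG, EREG, BTC, PTGS2 and TNFAIP6) and 2 the TATA box. These matches describe the sequence, and binding was not measured.

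Each FF library held 12299220 to 16021200 counts, and each RES library 12942198 to 18120922. At this depth 3 counts are the most that a library with 0 counts allows. They correspond to 0.166 to 0.244 CPM when scaled to the library's total over all identifiers, a limit that covers counting error only. The CPM of genes given below were scaled to a smaller total and are higher for the same count. PGR, for example, had a median of 200 counts in FF, where the median library total was 13490513, and a mean of 24.5 CPM. The limit and the CPM of genes are therefore not on the same scale. Of 11384 genes tested at a mean count of at least 5, 1610 differed between RES and FF at an adjusted p under 0.05 (edgeR's quasi-likelihood test with Benjamini-Hochberg adjustment). Of the granulosa markers, VCAN was the most abundant, at 51860 ± 15940 (SD, n = 13) normalized counts in FF and 55650 ± 9599 (SD, n = 14) in RES, while AMH was low, at 5.82 ± 3.11 and 7.24 ± 5.34. Theca markers were present as well, with CYP17A1, the androgen-making enzyme of theca cells, at 983 ± 708 normalized counts among FF sows and 455 ± 461 among RES sows. In the study's tables FF sow 10 has the lowest RNA integrity. The labels, however, give FF sow 9 as the animal dropped on that ground, so the table entries under number 10 may not describe the library used here, and its quality group and the results without it depend on this. In the same tables the reads of RES sows 3 and 5 stand apart in quality, so results were also computed without these 3 sows. Read quality further split the libraries into an upper group of 7 FF and 7 RES sows and a lower group of 6 FF and 7 RES sows.

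The ovulatory genes fell into 3 levels. PGR, RUNX1, RUNX2, PTX3 and TNFAIP6 had at least 3 counts in all 27 libraries, BTC and PTGS2 had as many in 24 of 27, and AREG, EREG and HAS2 stayed at a mean count under 5. Compared per kilobase of exon over both groups, RUNX1 (5.20 CPM per kb) and PGR (5.00 CPM per kb) lay near the middle of 10528 tested genes with a known length, above 51.7% and 50.9% of them. PTX3 (2.88 CPM per kb), RUNX2 (1.90 CPM per kb) and TNFAIP6 (1.25 CPM per kb) followed. BTC (0.562 CPM per kb), PTGS2 (0.316 CPM per kb), AREG (0.256 CPM per kb) and EREG (0.0657 CPM per kb) lay above 14.6%, 8.01%, 6.14% and 0.361% of tested genes. LHCGR, the receptor that receives the surge, stood at 318 CPM per kb in the same libraries.

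**Figure D1:**
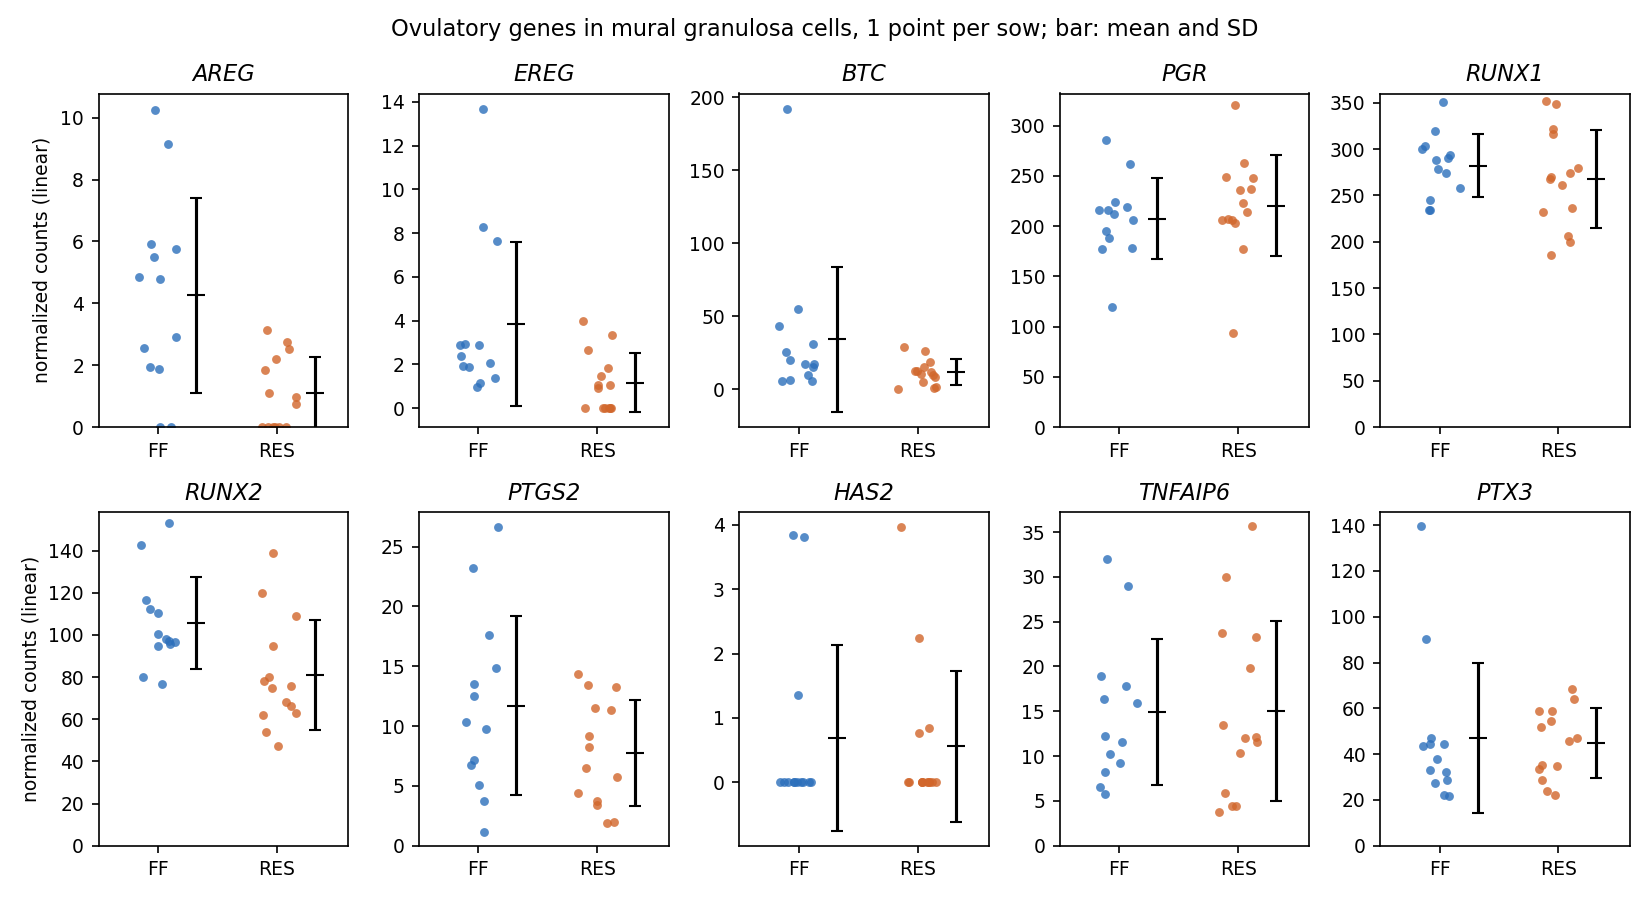
Normalized counts (counts divided by a size factor, linear axis) of the 10 ovulatory genes, 1 point per sow, with the mean and SD of each group beside the points (13 FF and 14 RES sows). AREG, EREG and BTC reach higher in FF, the highest BTC point is FF sow 14 at 192, and HAS2 stays at or under 3.96 in every sow.

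Among the EGF-like ligands, AREG (chr8:70417935-70428106, plus strand), which codes for amphiregulin, had 0 to 9 counts per library in FF sows (median 5) and from 0 to 3 in RES sows (median 1). The counts in all sows came to 53 in FF and 16 in RES. In normalized counts 7 of 13 FF sows lay above the highest RES sow, and 14 of 14 RES sows lay below the FF median. The groups overlapped at the low end, both among libraries with counts and among the 2 FF and 6 RES libraries that had 0 counts. The normalized count was 4.27 ± 3.15 (SD, n = 13) among FF sows and 1.09 ± 1.18 (SD, n = 14) among RES sows. AREG was under the count filter, and in the edgeR fit without that filter it was lower in RES by -1.86 on the log2 scale (SE 0.52, adjusted p = 0.0218). At least 1 count was found in 11 of 13 FF and 8 of 14 RES libraries, a difference that did not pass Fisher's exact test (two-sided, p = 0.209).

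EREG (chr8:70351316-70372530, plus strand) codes for epiregulin. It had 1 to 12 counts per library in FF sows (median 2) and from 0 to 4 in RES sows (median 1), with 47 and 17 counts in all. FF sows 6 and 8 were highest, with 12 and 9 counts, and 6 RES libraries had 0 counts. In the fit without the count filter EREG was lower in RES, from 3.84 ± 3.74 (SD, n = 13) to 1.162 ± 1.344 (SD, n = 14) normalized counts, a difference of -1.62 on the log2 scale (SE 0.52, edgeR, adjusted p = 0.0427). EREG was detected in 13 of 13 FF and 8 of 14 RES libraries (Fisher's exact test, two-sided, p = 0.0159), but with at least 3 counts in 6 of 13 and 3 of 14 (exact p = 0.236). 11 of 14 RES sows lay below the FF median, and the ranges overlapped.

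BTC (chr8:70645721-70697538, minus strand) codes for betacellulin and was the most abundant of the ligands. Its counts ran from 5 to 162 in FF sows (median 18) and from 0 to 33 in RES sows (median 11.5). FF sow 14, with 162 counts, stood far above the next FF sow, which had 48, and RES sow 9 had 0. BTC was lower in RES, from 34.2 ± 49.7 (SD, n = 13) to 11.6 ± 8.81 (SD, n = 14) normalized counts, a difference of -1.54 on the log2 scale (SE 0.51, edgeR, adjusted p = 0.0403). Without FF sow 14 the FF mean was 21.0 ± 15.4 (SD, n = 12) and the log2 fold change was -0.86, which did not pass the test, and the call was also lost without any one of FF sows 6 and 8 and RES sows 1, 3, 6, 8, 9, 11, 12 and 13. The summed normalized count of the 3 ligands ran from 8.25 to 200.5 in FF sows (median 25.4) and from 2.96 to 31.8 in RES sows (median 12.4).

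Within the read-quality groups alone, none of the 3 ligands passed the test. In the upper group the log2 fold changes were -1.84 for AREG, -2.05 for EREG and -1.92 for BTC, and in the lower group -1.89, -1.05 and -0.93, with edgeR adjusted p from 0.0769 to 0.119 in the upper and from 0.412 to 0.617 in the lower group. All 6 values were below 0. With the quality group as a covariate AREG passed (edgeR, adjusted p = 0.023), while EREG (0.0513) and BTC (0.0532) did not, nor did these 2 without RES sows 3 and 5 and FF sow 10 (0.0536 and 0.0587), where AREG passed (0.0204). The log2 fold changes of EREG and BTC were -1.58 and -1.46 with the covariate and -1.61 and -1.50 without those sows. With 1 library left out at a time AREG kept its call in 27 of 27 fits, while EREG kept it in 14 of 27, losing it without any one of FF sows 2, 3, 6 and 8 and RES sows 1, 3, 5, 6, 10, 11, 12, 13 and 14.

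PGR (chr9:32035684-32129776, minus strand) codes for the progesterone receptor, which mural GCs are known to make in quantity only after the surge. Its counts ran from 88 to 270 in FF sows (median 200) and from 113 to 311 in RES sows (median 236). The highest sow, RES sow 2, had 1.497 times the median of all sows in normalized counts, and FF sow 10 and RES sow 5 were the lowest of their groups. The normalized count was 208 ± 40.5 (SD, n = 13) among FF sows and 220.4 ± 50.2 (SD, n = 14) among RES sows, and the log2 fold change of 0.09 (SE 0.12, edgeR, adjusted p = 0.673) did not pass the test.

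RUNX1 and RUNX2 code for transcription factors that bind DNA with the partner CBFB. RUNX1 (chr13:198371835-198635648, minus strand) had 184 to 330 counts in FF sows (median 273) and from 178 to 426 in RES sows (median 285.5). It varied least among the sows, its highest sow at 1.28 times the median, and the groups overlapped, with 9 of 14 RES sows within the FF range of normalized counts, 4 below it and 1 above it, and a log2 fold change of -0.07 (SE 0.09, edgeR, adjusted p = 0.668). RUNX2 (chr7:40106581-40353304, plus strand) had 59 to 129 counts in FF sows (median 103) and from 56 to 157 in RES sows (median 79). 11 of 14 RES sows lay below the FF median in normalized counts and 8 of 14 below the lowest FF sow, while RES sow 4 reached 139. The normalized count was 106 ± 21.9 (SD, n = 13) among FF sows and 80.9 ± 26.1 (SD, n = 14) among RES sows, and the log2 fold change of -0.38 (SE 0.14, edgeR, adjusted p = 0.0717) did not pass. Without any one of RES sows 4, 7 and 14 it passed, at most at -0.46.

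PTGS2 (chr9:127850164-127858866, minus strand) codes for the inducible cyclooxygenase, the prostaglandin-making enzyme of ovulation. Its counts ran from 1 to 29 in FF sows (median 10) and from 2 to 15 in RES sows (median 8.5). FF sows 8 and 11, with 29 and 24 counts, were highest, and 4 FF sows lay above the highest RES sow. The log2 fold change of -0.60 (SE 0.34, edgeR, adjusted p = 0.242) did not pass the test. In RefSeq, exons of PTGS2 overlap those of PLA2G4A on the other strand, and the counting named no strand option. Counting used Ensembl exons, whose overlap was not examined, so the counts of PTGS2 are uncertain.

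Of the matrix genes, HAS2, the hyaluronan synthase of the expanding cumulus, was at or near the limit of detection. It had 8 counts over the 13 FF libraries and 8 over the 14 RES libraries, and was detected in 3 of 13 and 4 of 14 (Fisher's exact test, two-sided, p = 1.0). FF sow 4 and RES sow 9 had the most, with 4 counts each, and the other libraries had 0 to 3, so that a difference was not detectable at this depth. TNFAIP6 (chr15:862013-881352, minus strand), which transfers heavy chains to hyaluronan, had 6 to 33 counts in FF sows (median 12) and from 4 to 36 in RES sows (median 14). RES sow 9 and FF sow 2 were highest, and the groups overlapped, at 14.9 ± 8.12 (SD, n = 13) and 15.0 ± 10.0 (SD, n = 14) normalized counts (edgeR, adjusted p = 0.997). PTX3 (chr13:97273594-97279570, plus strand), the pentraxin that cross-links this matrix, had 19 to 103 counts in FF sows (median 35) and from 25 to 69 in RES sows (median 46.5). FF sows 10 and 13, with 103 and 94 counts, lay above every RES sow, and the log2 fold change of -0.06 (SE 0.25, edgeR, adjusted p = 0.897) did not pass. Without FF sow 10 it was 0.18 and did not pass either.

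In all, 1 of 7 ovulatory genes tested at a mean count of at least 5 was called, beside 14.1% of all tested genes, and it was lower in RES, as were 5.85% of all tested genes. That share is close to the background. In the fit without the count filter 3 of 10 were called, all lower in RES, beside 9.96% of all genes called and 3.76% called lower. The median log2 fold change of the 7 genes was -0.07, and that of all tested genes was -0.02.

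**Figure D2:**
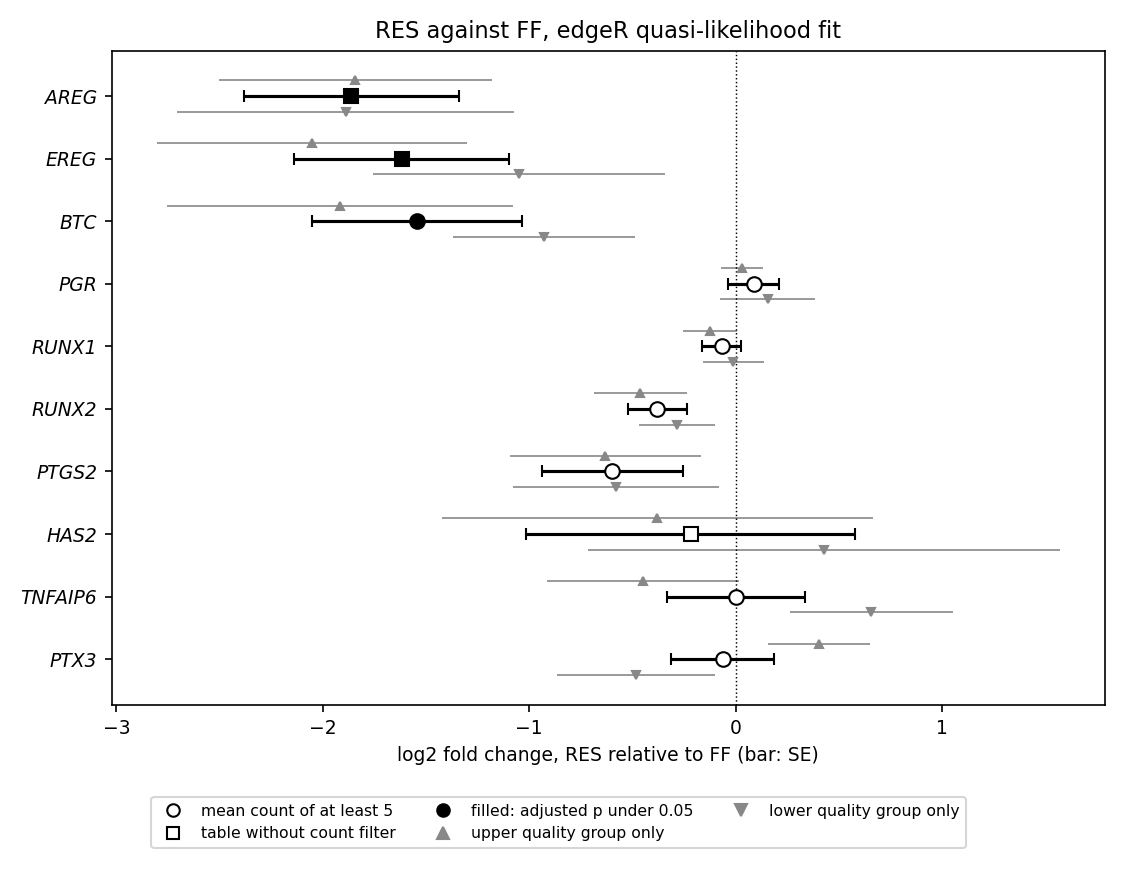
Log2 fold change of the 10 ovulatory genes, RES relative to FF, with the SE as bars. Black symbols show the fit over all 27 sows (squares without the count filter, filled where the adjusted p is under 0.05) and grey triangles the fits within the upper and lower read-quality groups. AREG (-1.86), EREG (-1.62) and BTC (-1.54) are filled, and their triangles also lie below 0.

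No follicle was among the 3 highest in more than 4 of the 10 ovulatory genes. Each gene has 3 places for its highest sows, which makes 30 places in all, and FF sows held 21 of them and RES sows 9. FF sows held every place of AREG, EREG and BTC, the genes called lower in RES, and the places of the other genes were shared more evenly. FF sow 6 was among the 3 highest in 4 genes (AREG, EREG, BTC and RUNX2) and FF sow 14 in 4 (AREG, BTC, RUNX1 and RUNX2). FF sow 8 followed with 3 (PTGS2, EREG and BTC) and RES sow 9 with 3 (TNFAIP6, HAS2 and PTX3), and 13 of 27 libraries held no place. FF sow 6, highest in AREG and EREG, and FF sow 14, highest in BTC but at the FF median in EREG, ranked 23 and 13 of 27 in PGR, at 178 and 216 normalized counts, and both had 0 counts of HAS2, while FF sow 6 ranked 4 in PTGS2. FF sow 8 also ranked 5 in AREG, 5 in RUNX2 and 7 in RUNX1, which put it among the 7 highest in 6 of 10 genes, but had 0 counts of HAS2 and ranked 26 of 27 in PTX3. RES sow 9, highest in TNFAIP6, had 2 counts of PTGS2 and 0 of AREG and BTC. The highest sow exceeded the median of all sows by 15.4 times in BTC, 7.43 times in EREG and 5.32 times in AREG, on few counts in the last 2, and by 2.91 times in PTGS2, 2.93 times in TNFAIP6 and 3.21 times in PTX3.

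**Figure D3:**
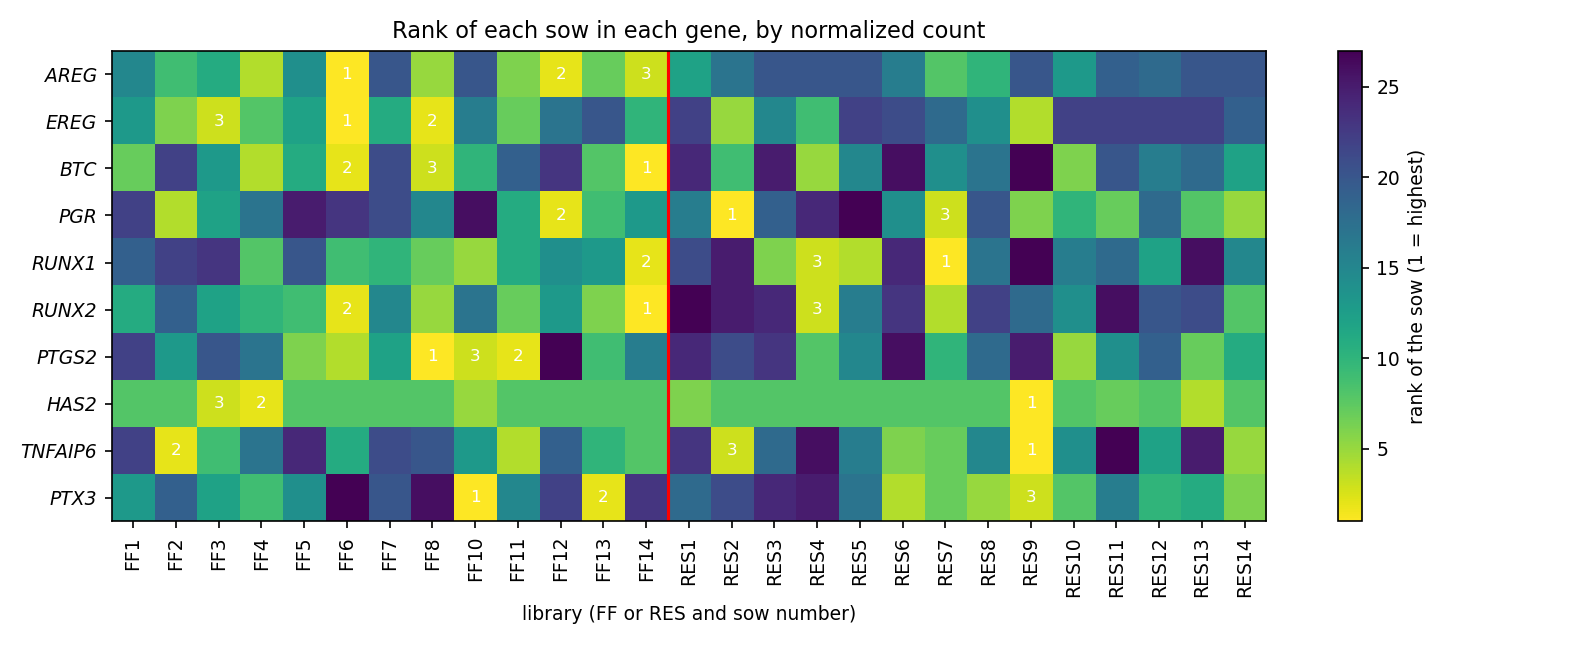
Rank of each sow (columns, FF left and RES right of the red line) in each ovulatory gene (rows) by normalized count, with 1 the highest and the 3 highest numbered. Sows with equal values share the best rank of the tie, so HAS2 has a uniform colour in libraries with 0 counts. No column holds a place among the 3 highest in more than 4 of the 10 genes.

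Relations between genes across sows were measured for PGR, BTC, PTX3, RUNX1 and RUNX2, which had a mean normalized count of at least 20 over all sows. BTC reached this limit only through FF sow 14, the highest sow in both BTC and RUNX2. Its mean was 34.2 in FF and 11.6 in RES, and 21.0 in FF without that sow. The BTC relations are therefore those of a gene admitted through the group where it is high, and are given as a description. In all, 20 correlations of log2 CPM were computed within FF or within RES (permutation tests, two-sided, with Benjamini-Hochberg adjustment over the 20). BTC and RUNX2 were correlated within FF (r = 0.79, p = 0.00149, adjusted p = 0.0298, rho = 0.764, p = 0.00317, adjusted p = 0.0634, n = 13). Without the 2 sows farthest from the median of BTC r was 0.493, so the relation rests in large part on those sows, and on residuals within the read-quality groups r was 0.791. Within RES, r of BTC and RUNX2 was 0.484 (permutation p = 0.0796, adjusted p = 0.228, rho = 0.569, p = 0.037, adjusted p = 0.191, n = 14) and did not pass. PGR was not related to any of the others beyond the threshold, with r from -0.531 to 0.214. Among all tested genes, the highest r with BTC over the 27 libraries were those of ADM, the vasodilator adrenomedullin (r = 0.859), NABP1 (r = 0.851) and WDFY2 (r = 0.849). For RUNX2 they were KLF7 (r = 0.866), FBXL20 (r = 0.850) and TIMP3, a metalloproteinase inhibitor (r = 0.847). For PGR they were EXOC5 (r = 0.784), PODN (r = 0.760) and RNF7 (r = 0.758), for RUNX1 MAML3 (r = 0.773), ZNF521 (r = 0.740) and VTN (r = 0.729), and for PTX3 RIOK1 (r = 0.710) and CHD4 (r = 0.693). With PTX3, r was 0.832 for RIOK1 and 0.866 for CHD4 within FF, but 0.439 and 0.330 within RES. These are descriptions, in which differences in depth and RNA quality between libraries can enter both genes of a pair.

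Other genes of the surge pathway were read from lists fixed by name. The counts called in each list stand beside the shares over all 11384 tested genes. Of these 14.1% were called, 944 genes higher in RES and 666 lower (5.85%). No list was tested as a set. In the EGF receptor network, 0 of 10 tested genes passed edgeR's adjusted threshold, and the smallest unadjusted p were those of EPGN, a further EGF-like ligand (log2 fold change -0.86, SE 0.36, unadjusted p = 0.022, adjusted p = 0.101), and ERBB3, a receptor (-0.32, SE 0.18, unadjusted p = 0.0902, adjusted p = 0.241). EPGN was the only one of the 10 with an unadjusted p under 0.05. DESeq2 called 0 of the 10, and voom with sample quality weights called 1, EPGN, lower in RES. EGFR, the receptor of the 3 ligands, stood at 363 ± 115 normalized counts among FF sows and 383 ± 103 among RES sows (adjusted p = 0.751).

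Of the early transcription factors 1 of 11 tested was higher and 1 lower in RES. CBFB, the partner of the RUNX proteins, was higher in RES, at 728 ± 131 against 587 ± 82.3 normalized counts, with 13 of 14 RES sows above the FF median (log2 fold change 0.31, SE 0.09, edgeR, adjusted p = 0.0200). The gene that was lower, NR4A2, a nuclear receptor of the early response, had a mean normalized count under 20 and is named here after its value was seen (log2 fold change -0.74, SE 0.21, edgeR, adjusted p = 0.0184). EGR1, an immediate early factor, ranged from 44.5 to 360 normalized counts in FF sows (median 133) and from 47.7 to 622 in RES sows (median 117), and FOS from 3.67 to 32.5 in FF sows (median 12.3) and from 4.44 to 49.0 in RES sows (median 16.1). Neither passed the test (log2 fold changes of 0.02 and 0.34, edgeR, adjusted p = 0.976 and 0.501), and the ranges of the groups overlapped for both.

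Among proteases and other effectors of rupture 1 of 16 tested genes was higher and 0 lower. PPARG, a nuclear receptor known to be controlled by PGR after the surge, ran from 469 to 2853 normalized counts in FF sows (median 1252) and from 619 to 5096 in RES sows (median 2148), with 11 of 14 RES sows above the FF median (log2 fold change 0.95, SE 0.30, edgeR, adjusted p = 0.0315). ADAMTS1, the versican-cutting protease and a known PGR target, did not pass (219.7 ± 57.4 in FF, 186 ± 52.5 in RES, log2 fold change -0.24, SE 0.15, adjusted p = 0.282). In the same fit 4 effectors had an unadjusted p under 0.05 and were lower, and DESeq2 called 2 lower (CTSL and CXCR4) and voom with sample quality weights 4 (MMP19 and SERPINE2 as well). CTSL was also called lower with the quality group as a covariate and with the sow number as a replicate block, and SERPINE2 without RES sows 3 and 5 and FF sow 10. SNAP25, a secretion protein known to be induced by the surge, had 0 counts in all 27 libraries.

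Of the hyaluronan matrix genes 0 of 8 tested were higher and 2 lower in RES. ITIH5, a heavy chain of the inter-alpha-inhibitor family, ran from 20.3 to 338.6 normalized counts in FF sows (median 38.4) and from 13.0 to 83.6 in RES sows (median 21.5), and was lower by -1.49 on the log2 scale (SE 0.41, edgeR, adjusted p = 0.0158). HAS3, another hyaluronan synthase, was lower in RES by -0.50 (SE 0.16, edgeR, adjusted p = 0.0295). VCAN, the proteoglycan of this matrix, did not pass (log2 fold change 0.11, SE 0.13, adjusted p = 0.629). HAPLN1, the hyaluronan link protein, was the 1 gene above 0 with an unadjusted p under 0.05 (log2 fold change 0.50, SE 0.22, adjusted p = 0.125), and ITIH3, another heavy chain, lay below 0 with one (-0.63, SE 0.24, adjusted p = 0.078). DESeq2 called neither, and voom with sample quality weights called 1 higher (HAPLN1) and 4 lower (HAS3, ITIH3, ITIH4 and ITIH5).

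Among prostaglandin genes 1 of 11 tested was higher and 2 lower. PTGFR, the receptor of prostaglandin F2 alpha, ran from 319.8 to 611 normalized counts in FF sows (median 447) and from 167 to 509 in RES sows (median 257), with 12 of 14 RES sows below the FF median (log2 fold change -0.72, SE 0.14, edgeR, adjusted p = 0.00212). PLA2G4A, the phospholipase that frees arachidonic acid, was lower by -0.69 (SE 0.17, adjusted p = 0.0076), and its RefSeq exons overlap those of PTGS2 as said above. PTGES3, a prostaglandin E synthase and HSP90 co-chaperone, was higher by 0.36 (SE 0.10, adjusted p = 0.0165).

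The steroid genes that climb with luteinization gave 0 higher and 2 lower of 8 tested. CYP11A1, which makes pregnenolone from cholesterol, ran from 193 to 1345 normalized counts in FF sows (median 502) and from 81.3 to 786 in RES sows (median 185), and was lower by -1.28 on the log2 scale (SE 0.33, edgeR, adjusted p = 0.0092). STARD4, a cholesterol carrier, was lower by -0.66 (SE 0.22, adjusted p = 0.0456). STAR, which moves cholesterol into mitochondria, ran from 464 to 7996 in FF sows (median 2067) and from 97.2 to 8163 in RES sows (median 940) and did not pass (log2 fold change -0.90, SE 0.52, adjusted p = 0.244). None of the 8 was higher at an unadjusted p under 0.05, or by DESeq2 or voom.

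Genes of the growing follicle, known to fall after the surge, gave 1 higher and 0 lower of 12 tested. HSD17B1, the estradiol-making dehydrogenase, was higher in RES, with 12 of 14 RES sows above the FF median (log2 fold change 0.56, SE 0.17, edgeR, adjusted p = 0.027), a call that was lost without RES sows 3 and 5 and FF sow 10. LHCGR ran from 3260 to 27600 normalized counts in FF sows (median 14560) and from 1404 to 23330 in RES sows (median 7700), and did not pass (log2 fold change -0.73, SE 0.35, adjusted p = 0.154). Besides HSD17B1, INHBB, an inhibin and activin subunit (log2 fold change 0.66, SE 0.26, adjusted p = 0.0907), and IHH, a hedgehog ligand (1.93, SE 0.81, adjusted p = 0.106), lay above 0 with an unadjusted p under 0.05, and LHCGR and FOXO1 lay below 0. DESeq2 called none of these 4. Voom with sample quality weights called all of them, 3 higher with HSD17B1 and 2 lower, and without RES sows 3 and 5 and FF sow 10 INHBB and IHH were called higher and FOXO1 lower. NPPC, the natriuretic peptide precursor of the growing follicle, had 0 counts in all 27 libraries. By list, the median log2 fold change ran at -0.08 for the EGF receptor network, -0.07 in the early factors, -0.09 in the effectors, -0.55 in the matrix genes, -0.23 in the prostaglandin genes, -0.19 in the luteinization genes and 0.21 in the growing-follicle genes.

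**Figure D4:**
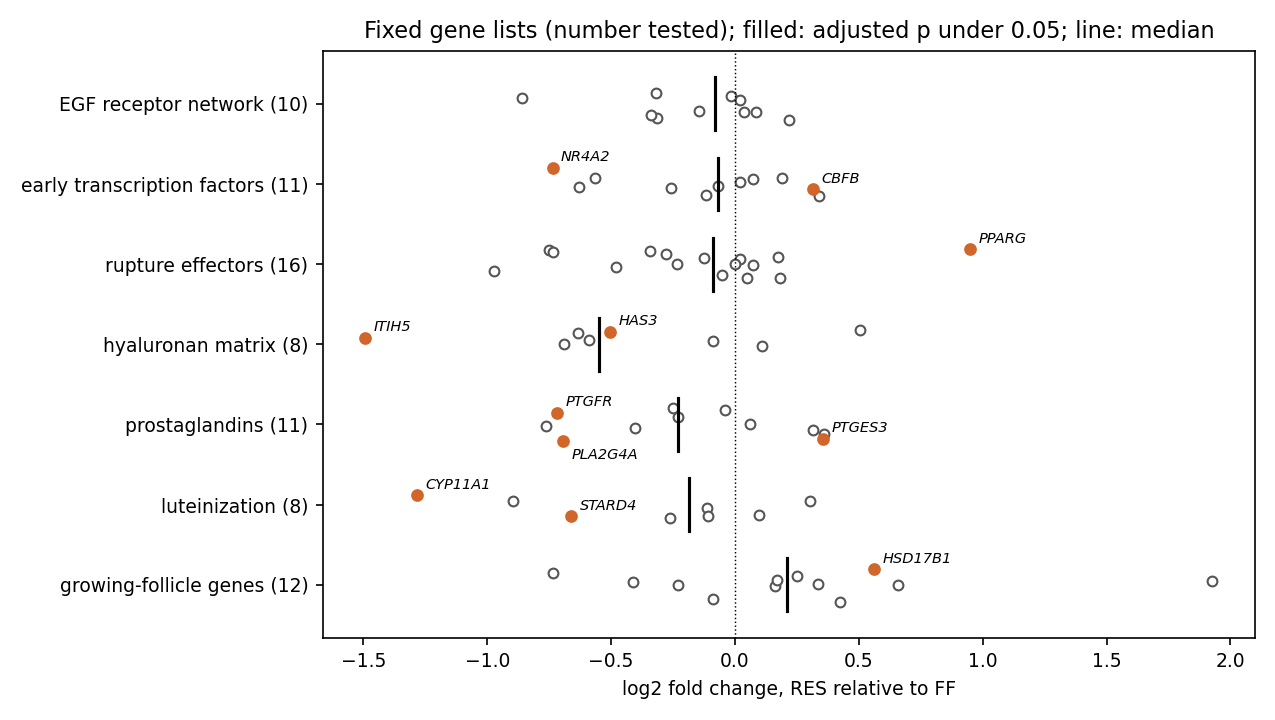
Log2 fold change, RES relative to FF, of each tested gene in 7 lists (number tested in brackets), with the median as a black line and genes past the adjusted threshold filled and named. Most points are open and lie on both sides of 0, and the median of the matrix genes lies lowest, at -0.55.

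Some markers of other cell types also differed between the same groups, beside the lower AREG, EREG and BTC. Their counts stand beside 14.1% of all tested genes called and 5.85% called lower in RES. Of the endothelial markers 3 of 8 tested (CDH5, CLDN5 and ESAM) were lower in RES, and their summed level ran from 107 to 189.7 CPM in FF sows (median 136.5) and from 70.4 to 229 in RES sows (median 106). The endothelial count was 4 with DESeq2, 5 with the quality group as a covariate and 6 with voom and sample quality weights. TIE1, the 1 endothelial marker above 0, was not called (log2 fold change 0.40, SE 0.22, edgeR, adjusted p = 0.227). Of the stroma and mural cell markers 2 of 11 (RGS5 and PDGFRB) were lower, RGS5 alone without RES sows 3 and 5 and FF sow 10 and 4 with voom (MYH11 and PDGFRA as well), with 1923 to 5438 CPM in FF sows (median 3171) and from 1475 to 5148 in RES sows (median 2790.0). The theca markers had 1 of 8 lower (CYP11A1), 2 with DESeq2 or the quality covariate (CYP17A1 as well) and 3 with voom (INSL3 as well), with 289 to 739 CPM in FF sows (median 469.9) and from 172 to 681 in RES sows (median 317.5), and the erythroid markers 1 of 2 (HBB), with 4.32 to 132 CPM in FF sows (median 11.14) and from 1.08 to 16.1 in RES sows (median 3.06). Of the leukocyte markers 0 of 5 passed edgeR's adjusted threshold, and 2 (CD163 and AIF1) had an unadjusted p under 0.05, both below 0 and called by voom with sample quality weights but not by DESeq2, with a sum of 11.4 to 55.2 CPM in FF sows (median 21.1) and from 6.01 to 43.4 in RES sows (median 14.9). The 2 tested oocyte markers, GDF9 and DDX4, had unadjusted p of 0.175 and 0.245, and neither DESeq2 nor voom called them, with a sum of 20.2 to 44.3 CPM in FF sows (median 27.2) and from 17.5 to 39.1 in RES sows (median 24.0). Of the granulosa markers 1 of 9, AMHR2, was lower, with 8695 to 14580 CPM in FF sows (median 11120) and from 9501 to 16000 in RES sows (median 12400). No marker found in the files was at 0 in all libraries, and the part of these cells in the ligand results was not tested. Fewer cells of a type and less RNA per cell cannot be told apart in these samples.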

How the data were processed

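RNA of mural GCs from 13 FF and 14 RES sows was measured by stranded RNA-seq with unique molecular identifiers. Per the study's methods, the submitters' processing notes and the file headers, the authors aligned reads to Sscrofa11.1 with HISAT2 2.2.1, used SAMtools 1.16.1, removed PCR copies with UMI-tools 1.1.4 and counted read pairs on Ensembl exons with featureCounts 1.6.2, with no strand option in the command. What the authors deposited is 1 table of raw counts per library, in whole numbers and without normalization.

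Symbols were matched by Ensembl identifier (15623 of 35670), and lengths, positions and promoters came from RefSeq of Sscrofa11.1. HAS2 had no RefSeq entry. CYP19A1 was not analysed here. Genes with a symbol and a mean count of at least 5, small RNAs left out, were tested with edgeR 4.0.16 (TMM, quasi-likelihood, no covariate, R 4.3.3), as in the study's filter and contrast. AREG, EREG and HAS2 came from the fit without that filter. Normalized counts are counts divided by DESeq2 1.42.0 size factors over the tested genes. Correlations used log2 CPM (prior count 2) and 100000 permutations. Alternatives were DESeq2's Wald test and size factors, upper-quartile factors, filterByExpr, all identifiers, a replicate block, read-quality groups (divided by the study's read statistics), limma 3.58.1 voom with sample weights, and leaving out libraries.

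On simulated data edgeR recovered 89.1% of 2-fold and 100% of 4-fold changes among 11384 genes with the filter, and 62.1% and 80.2% among 14744 genes without it, where 6.67% of calls were false (4.08% with the filter). The ovulatory genes and the lists were chosen with earlier results of these data known. Named were all 10 ovulatory genes, up to 4 called genes of each list with the largest change at a mean normalized count of at least 20 (or the 2 with the smallest p where none was called), ADAMTS1, EGR1, FOS, STAR, LHCGR and VCAN, and the 3 genes most like each ovulatory gene with a mean normalized count of at least 20. One result under this rule is not reported here.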

Additional observations from a re-analysis of the deposited data

How the results depend on the processing

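The number of ovulatory genes called at a mean count of at least 5 (1) was 2 with DESeq2's Wald test and 2 with voom and sample quality weights (RUNX2 besides BTC in both). It was 0 with the quality group as a covariate, 0 within the upper and 0 within the lower quality group, and 0 without RES sows 3 and 5 and FF sow 10, a setting chosen after seeing the data. It was 3 without the count filter. Leaving out single libraries gave 0 to 2. The 3 genes called without the count filter became 1 with all identifiers, 1 with the quality covariate, 1 without the 3 sows named and 1 with DESeq2, which gave no adjusted p for AREG (unadjusted p = 0.000489) and EREG (0.00292). Within the upper and the lower quality group they became 0 and 0, and without single libraries 1 to 4. The cause was not tested. Among all genes, 3193 were called with voom weights and 1 within the lower quality group, against 1610.

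Sow numbers did not pair the samples: deviations of 13 same-numbered pairs correlated at -0.242 to 0.31 (median 0.0104), and 0 FF sows correlated best with their own number. With the replicate block 0 ovulatory genes were called at a mean count of at least 5 (BTC -0.99, adjusted p = 0.202) and 1 without the filter (EREG, while AREG had an adjusted p of 0.114), and 1086 genes in all. Among the lists and markers it ended the calls of CBFB, PPARG, ITIH5, HAS3, PTGES3, STARD4, HSD17B1, ESAM, PDGFRB, HBB and AMHR2, and added those of CTSL, INHBB, TEK and AIF1.

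AREG, EREG and BTC were lower in RES in every fit run. Genes near 0 turned sign without passing. TNFAIP6 was -0.0029 with DESeq2's size factors, -0.0118 with filterByExpr, -0.19 with the replicate block, -0.0252 with upper-quartile factors, -0.11 with voom weights, -0.45 within the upper and 0.66 within the lower quality group, and -0.16 to 0.15 without single libraries. PTX3 was 0.26 with voom weights, 0.26 without the 3 sows, 0.41 within the upper and -0.48 within the lower quality group, and -0.13 to 0.18 without single libraries. HAS2, on 8 counts in each group, was 0.0813 without the 3 sows, 0.0703 with voom weights, 0.43 within the lower quality group and -0.91 to 0.46 without single libraries. AREG, EREG and HAS2 were left out by filterByExpr, as was PTGS2. Depth limits AREG, EREG and HAS2, whose libraries often hold 3 counts or fewer.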
